A study of Mus musculus with 10 samples.

Results

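Cpt1a, Acaa2, Ppara and Pex11a are 4 genes of fatty acid oxidation that carry a transcript accession on the arrays, each on 1 probe printed in 10 spots. They were chosen by accession (NM_013495 for Cpt1a, NM_177470 for Acaa2, NM_011144 for Ppara and NM_011068 for Pex11a), and their probes are 4 of the 60706 mouse probes used and 4 of the 45 that could be given a gene name. RNA came from testes of male C57BL/6J mice aged 3 months. The dams of 5 samples had received testosterone under the skin every day from day 14 to day 19 of pregnancy at 2.5 mg/kg, and those of the other 5 the sesame oil and benzyl benzoate solvent alone. On each array 1 sample was hybridised in 2 colours, with the supernatant (Sup) in Cy3 and the immunoprecipitated RNA (IP) in Cy5. Every array had this orientation, and the effect of the dye cannot be told apart from that of the fraction. The labels call the samples biological replicates without naming dam or litter, so the p-values take as independent samples that may be littermates. They do not name the antibody either, and a ratio is therefore given only as IP over Sup.

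Fatty acids are burnt in mitochondria and shortened in peroxisomes. PPAR alpha, the nuclear receptor encoded by Ppara, binds fatty acids, pairs with a retinoid X receptor and switches on genes of both routes. Cpt1a encodes the carnitine palmitoyltransferase of the outer mitochondrial membrane that controls entry of long-chain fatty acids. Acaa2 encodes a mitochondrial thiolase that cleaves acetyl-CoA from the chain at the last step of each cycle, and Pex11a a membrane protein that elongates peroxisomes before they divide. In the testis, Sertoli cells, which engulf the residual bodies and dying germ cells, burn fatty acids for energy.

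The promoter windows of 3 of the genes are shown because Ppara encodes a factor that binds repeats of the hexamer AGGTCA, which makes these letters of interest in the genes it is known to regulate. The window of Acaa2 was left out, so the counts for single genes below do not cover it. Each window runs from 250 bases before to 50 bases after the gene start in RefSeq (GRCm38.p6), 5′ to 3′ on the strand of the gene. The positions are chr19:3323051-3323350 on the plus strand for Cpt1a, chr15:85735526-85735825 on the plus strand for Ppara and chr7:79743082-79743381 on the minus strand for Pex11a. Capitals mark every match on either strand to AGGTCA or to the GC box GGGCGG, which do not overlap here.
Cpt1a: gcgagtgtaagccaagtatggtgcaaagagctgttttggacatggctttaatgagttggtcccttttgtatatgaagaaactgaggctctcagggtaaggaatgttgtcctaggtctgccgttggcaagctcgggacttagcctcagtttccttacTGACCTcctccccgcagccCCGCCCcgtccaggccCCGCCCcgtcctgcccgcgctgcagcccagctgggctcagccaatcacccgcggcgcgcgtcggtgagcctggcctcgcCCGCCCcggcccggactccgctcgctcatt
Ppara: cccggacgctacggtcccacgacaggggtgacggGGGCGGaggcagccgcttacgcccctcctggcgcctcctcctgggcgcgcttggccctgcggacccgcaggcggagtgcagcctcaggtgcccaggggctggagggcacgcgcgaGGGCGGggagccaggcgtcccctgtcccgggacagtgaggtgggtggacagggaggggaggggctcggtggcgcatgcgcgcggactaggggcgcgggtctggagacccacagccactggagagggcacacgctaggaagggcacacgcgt
Pex11a: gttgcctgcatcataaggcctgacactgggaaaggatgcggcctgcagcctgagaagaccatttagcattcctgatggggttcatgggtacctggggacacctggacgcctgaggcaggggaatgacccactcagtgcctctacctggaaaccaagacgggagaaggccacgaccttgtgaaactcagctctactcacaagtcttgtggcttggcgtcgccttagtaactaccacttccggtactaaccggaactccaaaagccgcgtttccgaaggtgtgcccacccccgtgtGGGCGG
AGGTCA occurred once on the minus strand in the Cpt1a window and in neither of the others, against 16.3% of 32851 windows of the same length. The full repeat, 2 copies of AGGTCA with 1 base between them, was in 0 of the 3 windows and in 0.0396% of all windows. GC boxes numbered 3 in Cpt1a, 2 in Ppara and 1 in Pex11a, and 35.7% of windows held at least 1. The bases G and C made up 62.3% of the Cpt1a window, 74.7% of that of Ppara and 57.3% of that of Pex11a. The median over all windows was 52.7%, so the 35.7% is not a share for windows of like composition. These are matches of letters; the arrays measured no binding.

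All 4 transcripts were well above background in adult testis, on 100 of 100 spots in each colour for each gene. None of these spots was saturated. Over the arrays, the brightness of the Acaa2 spots was 116 to 304 times the local background in Sup and 15.8 to 44.2 times in IP. For Pex11a it was 68.2 to 104 times in Sup and 82.5 to 157 times in IP, and for Cpt1a 14.1 to 33.9 and 17.0 to 43.1 times. Ppara was nearest to its background, at 8.17 to 10.8 times in Sup and 5.66 to 11.7 times in IP. Of 38 marker genes of testis cell types and of liver and fat, 3 carry a name on the probes used here. The germ cell genes Spats1 and Hyal3, and Apoe, made by macrophages among others, were well above background in both colours on 10 of 10 arrays. No Sertoli, Leydig, liver or fat marker could be read by name, so the makeup of the samples was not tested. Of the 63 genes of a fatty acid oxidation list, only the 4 described here carry a name.

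At least 67.6% of mouse probes were well above background in Sup on each of the 10 arrays. In IP the share was 71.3% to 75.6% on 8 arrays, and 61.6% and 63.7% on testosterone replicates 4 and 5, which were scanned separately. Slides were inferred from the barcode number of each array within a scan date, and this reading could not be checked. By it, testosterone replicates 4 and 5 sat on a slide of their own. Of the other 2 slides, 1 held control replicates 1 to 4 and the other control replicate 5 with testosterone replicates 1 to 3. Treatment is thus largely tied to slide, and only the last of these slides held both groups.

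The first comparison set the fractions against each other. Cpt1a, Pex11a and Ppara lay on the IP side and Acaa2 on the Sup side, on every array and in every spot that was used. The log2 IP/Sup ratio, relative to the median mouse probe of each array, was 1.30 ± 0.063 (SE, n = 10) for Cpt1a, 1.18 ± 0.067 for Pex11a, 1.02 ± 0.077 for Ppara and -2.29 ± 0.073 for Acaa2. These are 2.46-, 2.26- and 2.02-fold to the IP side and 4.91-fold to the Sup side. With limma and Benjamini-Hochberg adjustment over 41359 probes, and a ratio of at least 2-fold required, 3 of the 4 genes were called on the IP side, where 19.5% of all tested probes were, and 1 on the Sup side, where 21.1% were. The adjusted p-values by limma were 1.77e-10 for Cpt1a, 8.65e-10 for Pex11a, 2.12e-08 for Ppara and 2.34e-12 for Acaa2. They test the ratio against 0 and not against 2-fold. In that test 35106 of the 41359 probes had an unadjusted p under 0.05, so a small p sets few probes apart.

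**Figure D1:**
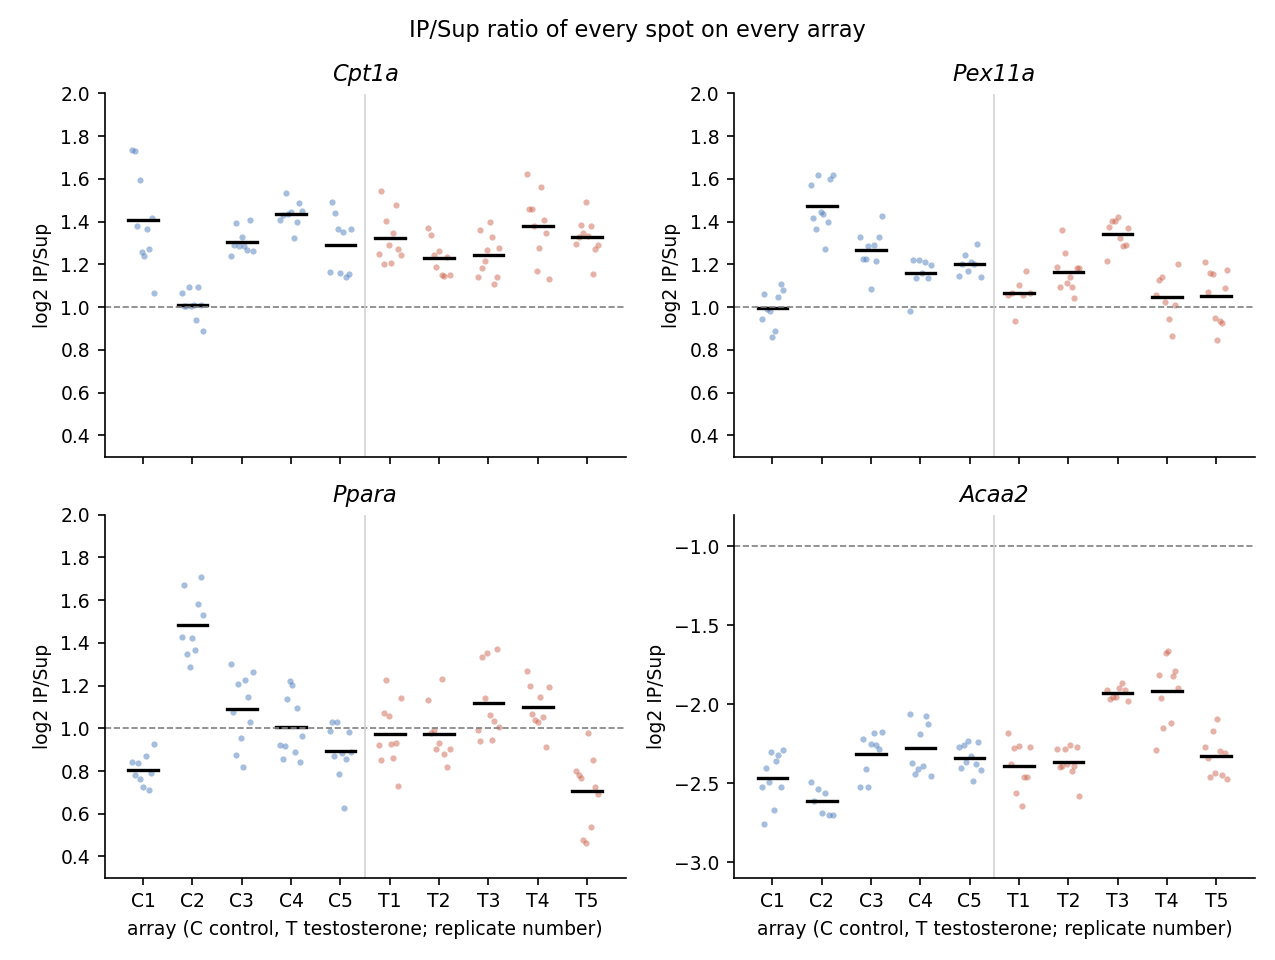
Log2 IP/Sup ratio (vertical axis) of every spot used, for each gene on each of 10 arrays (horizontal axis, C control, T testosterone, with the replicate number). Black bars are array means over the spots and dashed lines mark 2-fold. All spots of Cpt1a, Pex11a and Ppara lie above 0 and all those of Acaa2 at or below -1.66, and control replicate 2 is low for Cpt1a and high for Pex11a and Ppara.

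Cpt1a had log2 IP/Sup ratios of 1.41, 1.01, 1.31, 1.43 and 1.29 in control replicates 1 to 5. After testosterone they were 1.32, 1.23, 1.24, 1.38 and 1.33. Control replicate 2 was the lowest of the 10 and the other 9 lay close together in both groups. Single spots ran from 0.89 to 1.74, and 94 of the 96 used were at least 2-fold to the IP side.

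Pex11a had ratios of 1.00, 1.47, 1.27, 1.16 and 1.20 in controls. They were 1.06, 1.17, 1.34, 1.05 and 1.05 after testosterone. Here control replicate 2 was the highest array. Of the 88 spots used, 75 reached 2-fold, between 0.84 and 1.62.

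Ppara had ratios of 0.81, 1.48, 1.09, 1.00 and 0.89 in controls and of 0.97, 0.97, 1.12, 1.10 and 0.71 after testosterone. It straddled the 2-fold line: 43 of the 96 spots used reached it, in a range from 0.47 to 1.71. Control replicate 2 was again the highest array. The 2-fold call of Ppara was lost when that array was left out, at 0.96, or when testosterone replicate 3 (0.997) or 4 (0.999) was, whereas its adjusted p stayed under 0.05 each time.

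Acaa2 had ratios of -2.47, -2.61, -2.32, -2.28 and -2.34 in controls. After testosterone they were -2.39, -2.37, -1.93, -1.92 and -2.33. All 92 spots used were at least 2-fold to the Sup side, from -2.76 to -1.66. Control replicate 2 lay at the Sup end, and testosterone replicates 3 and 4 were the nearest to the median probe.

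The order of the 3 ratios on the IP side was loose. Cpt1a exceeded Pex11a on 8 of 10 arrays, by 0.12 ± 0.258 (SD, n = 10) on the log2 scale, which is less than the spread between arrays. Pex11a exceeded Ppara on 8 of 10 arrays, by 0.16 ± 0.125 (SD). Cpt1a exceeded Ppara on 9 of 10, by 0.28 ± 0.308 (SD). Without control replicate 2 these 3 mean differences were 0.18, 0.18 and 0.36. Ppara exceeded Acaa2 on 10 of 10, by 3.31 ± 0.311 (SD). Probes against spike-in RNA, which the labels say was added equally to both fractions, give a background for these ratios. The 21 spike-in probes detected everywhere had mean log2 ratios from -1.56 to 1.40, and 9 of them lay at least 2-fold from 0. Of these 21, 2 lay above Cpt1a, 3 above Pex11a and 4 above Ppara. Acaa2 lay below all 21. Normexp background correction was run on the uncorrected brightness with an offset of 50, without the spatial detrending and dye normalization of the deposited signal. This setting thus changed more than the background, and only the centring on the array median was kept. Its ratios were 0.93 for Cpt1a, 0.92 for Pex11a, 0.50 for Ppara and -2.30 for Acaa2. Only Acaa2 was then called at 2-fold, and which of these changes mattered was not tested.

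**Figure D2:**
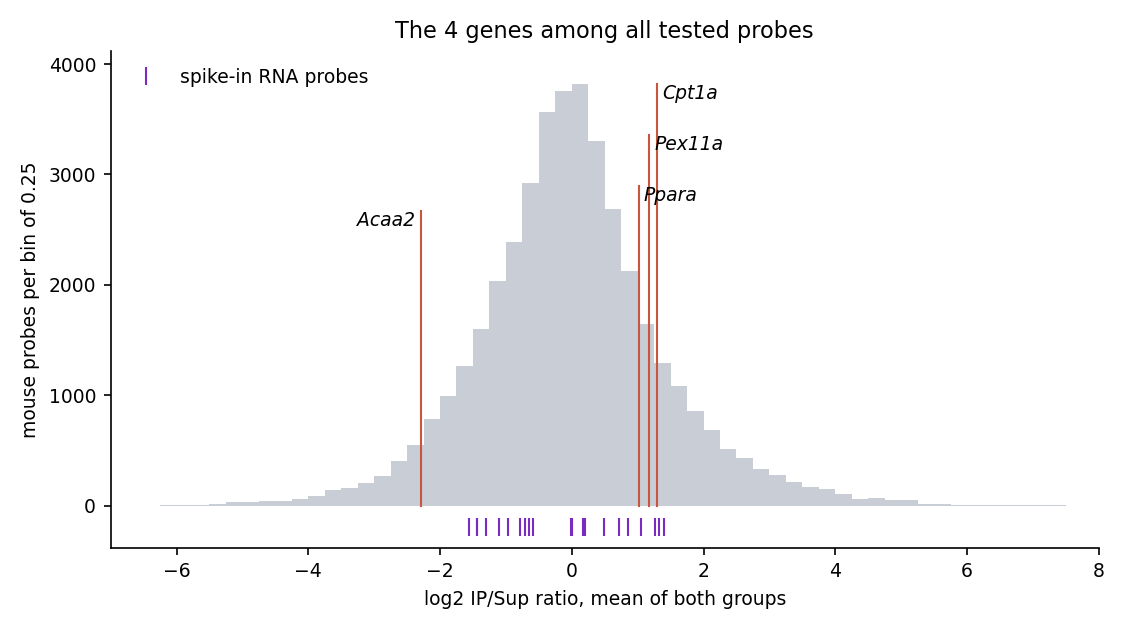
Number of mouse probes (vertical axis) by mean log2 IP/Sup ratio (horizontal axis, bins of 0.25) for all 41359 tested probes, with red lines at the 4 genes and purple ticks at the 21 spike-in probes. Cpt1a, Pex11a and Ppara exceed 85.0%, 83.4% and 80.8% of the probes and lie within the span of the spike-ins, and Acaa2 exceeds 4.70% and lies below it.

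Spots of 1 probe on 1 array share the labelled RNA, so their spread measures the array alone. The median spot SD of the log2 ratio was 0.089 for Pex11a, 0.094 for Cpt1a, 0.13 for Acaa2 and 0.15 for Ppara. Over the 39 probes with 10 spots that were well above background everywhere, the median was 0.12. Acaa2 was very even in Sup, with a median spot SD of 0.030, and less so in IP, at 0.12. For Ppara the Sup spots varied more, at 0.10 against 0.082. The SD between arrays, at 0.12 for Cpt1a, 0.15 for Pex11a, 0.21 for Ppara and 0.22 for Acaa2, was 4.03, 5.20, 4.52 and 5.04 times the median standard error of an array mean over its spots.

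The second comparison asked whether prenatal testosterone shifted the division of these transcripts between the fractions in the adult offspring. None of the 4 passed the test. The ratio differed most for Acaa2, which went from -2.40 ± 0.137 (SD, n = 5) to -2.19 ± 0.241 (SD, n = 5), a difference of 0.22 ± 0.147 (SE) toward the median probe. All 5 testosterone arrays lay above the control mean, yet the groups overlapped. Without control replicate 2 the control mean was -2.35, 3 of 5 testosterone arrays lay above it, and the difference was 0.16. Its adjusted p by limma over all 41359 probes was 0.796, and its p by an exact permutation test (two-sided) 0.175. The 95% interval ran from -0.10 to 0.53. The difference was 0.17 on the 8 arrays scanned together and 0.11 on the slide with both groups.

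Cpt1a differed by 0.01 ± 0.127 (SE) in log2 IP/Sup, with a 95% interval from -0.26 to 0.29 and an adjusted p by limma of 0.989. Ppara differed by -0.08 ± 0.155 (SE; interval -0.41 to 0.25, adjusted p by limma 0.912) and Pex11a by -0.08 ± 0.134 (SE; interval -0.37 to 0.20, adjusted p by limma 0.892). Without control replicate 2 these differences were -0.06 for Cpt1a, 0.03 for Ppara and -0.02 for Pex11a. Without control replicate 1 they were 0.04 for Cpt1a and -0.14 for both Ppara and Pex11a. The difference of Cpt1a was -0.0086 without testosterone replicate 4, and that of Ppara -0.01 without testosterone replicate 5. By limma, 0 of the 4 genes had an adjusted p under 0.05, as did 0% of all tested probes, and 0 of 4 an unadjusted p under 0.05, against 6.04% of all. The groups overlapped for all 4 genes. Of all probes, 0.464% had every testosterone array below every control and 0.633% every one above. The median difference of the 4 genes was -0.03, beside -0.02 for all probes.

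The third comparison took the level of each transcript within a fraction, as log2 signal relative to the 75th percentile of that array and colour. A lower level in a fraction of whole testis can mean fewer cells of a type or less RNA per cell, which cannot be told apart here. It can also go with a different division between the fractions, which the second comparison took up. By limma, 0 of the 4 genes passed in Sup, as did 0% of 44627 tested probes, and 0 of 4 in IP, against 0.00226% of 44318. At an unadjusted p under 0.05 there were 0 of 4 in either fraction, where all probes gave 11.2% in Sup and 13.8% in IP. The groups overlapped for all 4 genes in both fractions. Of all probes, 1.76% had every testosterone array below every control in Sup and 0.67% every one above, and in IP 2.17% and 1.27%. The median difference of the 4 genes was -0.04 in Sup, beside -0.05 for all probes, and 0.01 in IP, beside -0.03. When the arrays were scaled on the spike-in probes in place of the 75th percentile, the median of all probes in IP was -0.24, and Cpt1a, Acaa2, Ppara and Pex11a differed there by -0.35, -0.20, -0.12 and -0.21. In the sum of both scaled fractions 0 of 4 passed, against 0.0063% of 47582 probes, and 0 of 4 had an unadjusted p under 0.05, against 15.7%. With scan as a block in the fit, 1958 probes in Sup, 3849 in IP and 3795 in the sum had an unadjusted p under 0.05. Without the block the counts were 4995, 6120 and 7486.

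**Figure D3:**
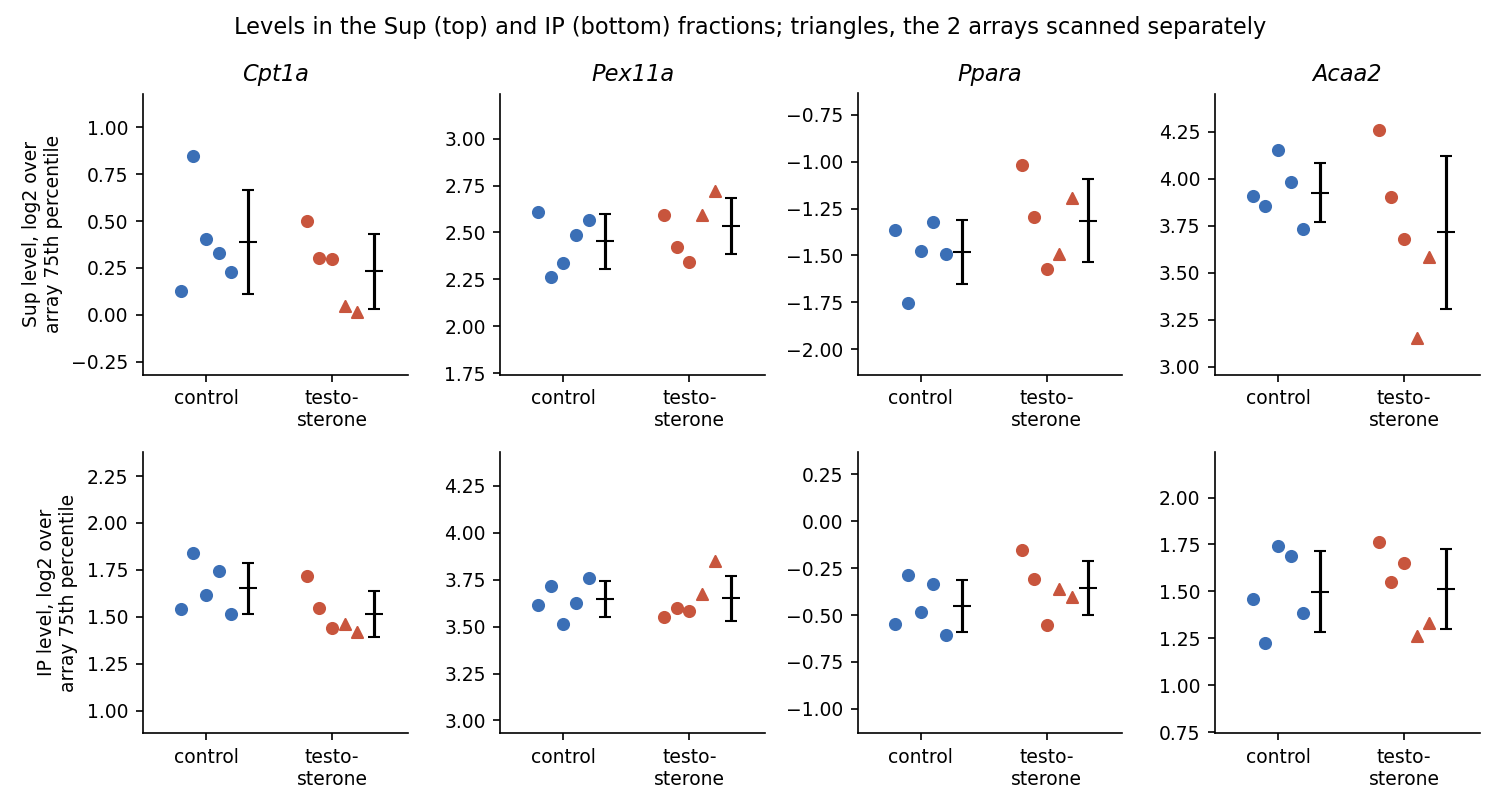
Level of each gene in the Sup (top row) and IP (bottom row) fractions, as log2 signal over the 75th percentile of the array, for 5 control and 5 testosterone arrays; bars are mean and SD, and triangles are testosterone replicates 4 and 5, scanned separately. All vertical axes span the same range of 1.5, so panels differ in centre only. The groups overlap in every panel, and the 2 triangles are the lowest points for Cpt1a and Acaa2 in Sup.

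Acaa2 in Sup stood at 3.91, 3.86, 4.15, 3.99 and 3.73 in control replicates 1 to 5, and at 4.26, 3.91, 3.68, 3.15 and 3.58 in testosterone replicates 1 to 5. The highest array and the 3 lowest were all from the testosterone group. The means were 3.93 ± 0.157 (SD, n = 5) and 3.72 ± 0.409 (SD, n = 5), a difference of -0.21 ± 0.181 (SE) with an adjusted p by limma of 0.569 and an interval from -0.61 to 0.18. The 2 lowest arrays, testosterone replicates 4 and 5, averaged 0.58 below the other testosterone arrays. Leaving out 1 array gave differences from -0.35, without testosterone replicate 1, to -0.07, without testosterone replicate 4. Without both separately scanned arrays the difference was 0.02, and on the slide with both groups it was 0.22, against a single control.

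Acaa2 in IP had levels of 1.46, 1.22, 1.74, 1.69 and 1.38 in controls. After testosterone they were 1.77, 1.55, 1.65, 1.26 and 1.33. The difference was 0.01 ± 0.135 (SE; adjusted p by limma 0.967). Leaving out control replicate 2 or 5, or testosterone replicate 1 or 3, turned its sign, with values down to -0.05.

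Cpt1a in Sup had levels of 0.13, 0.85, 0.40, 0.33 and 0.23 in controls and of 0.50, 0.30, 0.30, 0.05 and 0.01 after testosterone. Control replicate 2 was the highest and testosterone replicates 4 and 5 were the lowest. The difference was -0.15 ± 0.152 (SE; adjusted p by limma 0.616, interval -0.48 to 0.18). It was -0.04 without control replicate 2 alone, and -0.02 on the 8 arrays scanned together. In IP the levels were 1.54, 1.84, 1.61, 1.74 and 1.51 in controls and 1.72, 1.55, 1.44, 1.46 and 1.42 after testosterone. Only testosterone replicate 1 exceeded the control mean, but controls 1, 3 and 5 lay within the testosterone range. This difference was -0.13 ± 0.101 (SE), with an adjusted p by limma of 0.520, an exact two-sided permutation p of 0.159 and an interval from -0.35 to 0.09. It was -0.09 without control replicate 2.

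Ppara in Sup had levels of -1.36, -1.75, -1.48, -1.32 and -1.49 in controls. After testosterone they were -1.02, -1.29, -1.57, -1.49 and -1.19. Control replicate 2 was the lowest array, opposite to its place for Cpt1a, and the groups overlapped. The difference was 0.17 ± 0.133 (SE; adjusted p by limma 0.544, interval -0.12 to 0.46), and was 0.09 without testosterone replicate 1 and 0.10 without control replicate 2. In IP they were -0.55, -0.29, -0.48, -0.34 and -0.61 in controls and -0.15, -0.31, -0.55, -0.36 and -0.41 after testosterone. Testosterone replicate 1 was the highest, and the other values were mixed between the groups, with a difference of 0.10 ± 0.105 (SE; adjusted p by limma 0.658) that was 0.05 without testosterone replicate 1.

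Pex11a was the steadiest of the 4 within a fraction, with an SD over 10 arrays of 0.15 in Sup and 0.10 in IP. Its Sup levels were 2.61, 2.26, 2.34, 2.49 and 2.57 in controls and 2.59, 2.42, 2.34, 2.59 and 2.72 after testosterone. The difference was 0.08 ± 0.115 (SE; adjusted p by limma 0.726), and 0.03 without control replicate 2 or testosterone replicate 5. Its IP levels were 3.62, 3.72, 3.51, 3.63 and 3.76 in controls and 3.55, 3.60, 3.58, 3.67 and 3.85 after testosterone. They overlapped over most of their range, and differed by 0.0057 ± 0.094 (SE; adjusted p by limma 0.982, interval -0.20 to 0.21). Leaving out control replicate 1 or 3 or testosterone replicate 5 turned the sign of the IP difference, with values down to -0.04.

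**Figure D4:**
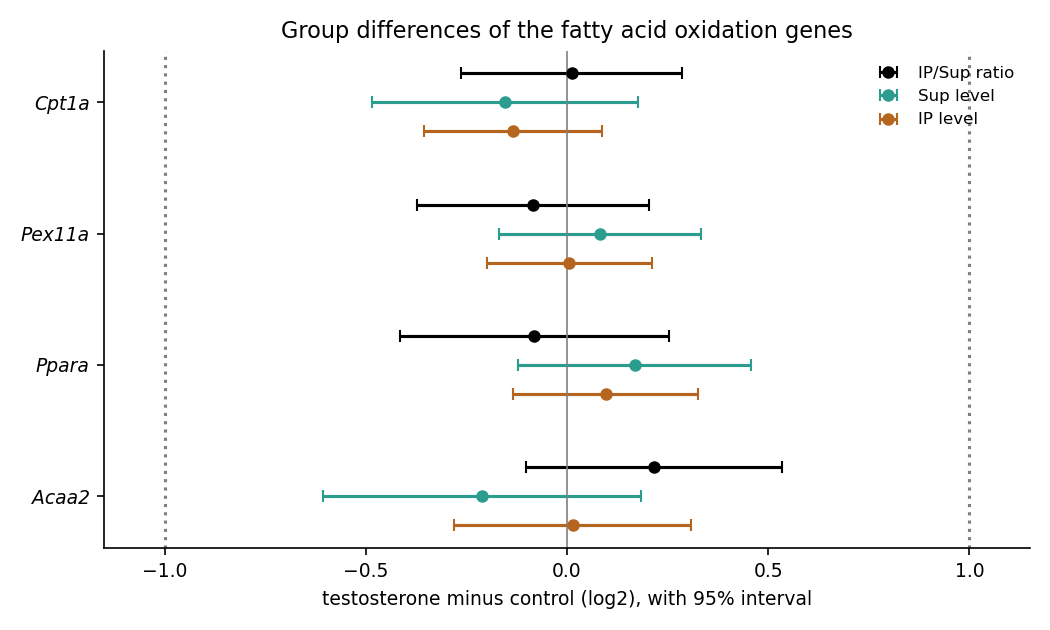
Testosterone minus control (horizontal axis, log2) in the IP/Sup ratio, the Sup level and the IP level of each gene (vertical axis); points are limma estimates from 5 against 5 arrays, bars their 95% intervals, and dotted lines mark 2-fold. All bars cross 0 and all lie between -0.61 and 0.53.

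The intervals, from the fit with group alone, bound what could have been missed only so far as the slides did not differ. Over the 3 measures and 4 genes, the lowest bound was -0.61, for Acaa2 in Sup, and the highest 0.53, for the ratio of Acaa2. The exact two-sided permutation p-values ran from 0.159 to 0.937, where the smallest that 5 against 5 arrays can give is 0.00794. These intervals cover the spread between arrays and not a shift shared by a slide. The 3 marker genes were lower on average after testosterone in Sup, as were 57.2% of all tested probes, and none passed the test there. The germ cell gene Hyal3 went from -2.08 ± 0.217 (SD, n = 5) to -2.55 ± 0.112 (SD, n = 5), Spats1 from -0.75 ± 0.317 (SD) to -1.08 ± 0.207 (SD) and Apoe from 3.83 ± 0.241 (SD) to 3.62 ± 0.281 (SD). On the testosterone arrays of the common scan alone, the means were -2.49 for Hyal3, -0.93 for Spats1 and 3.80 for Apoe, so that most of the shift of Apoe went with testosterone replicates 4 and 5. The part of these genes in the values above was not tested.

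The profile of the ratio over the 10 arrays was set against those of 34 other named probes, each centred on its own mean, by the root mean square distance in log2 units. The arrays, slides and colours are common to all of these profiles. Acaa2 lay closest to Gamt, an enzyme of creatine synthesis, at 0.091, and next to Hyal3 at 0.15. Cpt1a lay closest to Hyal3, a hyaluronidase gene, at 0.10 and then to Alkbh4 at 0.14. Ppara lay closest to Nup50, of the nuclear pore, at 0.14 and Tm9sf1 at 0.14, and Pex11a to Cep41, a centrosomal protein, at 0.12 and Taf1a, of RNA polymerase I initiation, at 0.12. The median distance to the 34 probes was 0.22 to 0.26. Among the 4 genes themselves, Ppara and Pex11a were 0.12 apart and Cpt1a and Ppara 0.29. Control replicate 2 set much of that contrast, since without it Cpt1a and Ppara were 0.16 apart and Ppara and Pex11a 0.11.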

How the data were processed

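The authors read the scans with Feature Extraction (version 11.0.1.1, per the file headers). The deposited processed signal is, per the file headers, a linear spot intensity after background subtraction, spatial detrending and linear plus lowess dye normalization. The lowess step pulls most probes' ratios toward 0, so a ratio is relative to other probes. The authors' deposited value table, on a log2 scale, equals log2 of the Cy5 processed signal less a constant of unknown origin for each array; it holds none of the 4 probes.

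Outlier and control spots were left out (346 to 692 outlier spots per array), and spots were averaged as log2 values. A probe was tested if well above background on at least 5 of 10 arrays, in both colours for the ratio. The fits used lmFit and eBayes of limma (version 3.58.1, under R 4.3.3) with Benjamini-Hochberg adjustment over all tested probes and a threshold of 0.05. Code was tested on simulated data. Figures were drawn with matplotlib 3.10.9. Accessions were matched to RefSeq (GRCm38.p6; 45 of 50 matched). The array header names another build, so no gene coordinates are given besides the promoter windows. Named besides the 4 genes were the 2 named probes with the most similar profile for each, and marker genes. The genes and lists were chosen with earlier results of these data known. The number of arrays limits the precision. Alternatives are listed in the closing section.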

Additional observations from a re-analysis of the deposited data

How the results depend on the processing

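In every alternative run, 0 of the 4 genes passed for a difference between the groups (ratio, Sup, IP or summed level), and Acaa2 was called on the Sup side. Over all probes, the calls between groups ranged over the alternatives from 0 to 0 for the ratio (0 in the comparison reported), 0 to 2 for Sup (0), 0 to 471 for IP (1; 471 with the authors' value table, otherwise at most 3) and 0 to 6 for the sum (3). Of those 471, 448 were lower after testosterone. The median difference of all probes was -0.30 with the authors' value table, in place of -0.03. Calls to either side of the ratio ranged from 10281 with normexp to 22111 without a filter (16795).

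With normexp, 0 genes were called on the IP side in place of 3. Ppara was also under 2-fold with the median over spots, with slide or scan as a block, on the slide with both groups, and on the 8 arrays scanned together less control replicate 2 (0.96 to 0.99). Differences that turned their sign, none of which passed under either setting, were as follows. With normexp they were -0.046 for the ratio of Cpt1a, -0.0057 for Pex11a in Sup and -0.0043 for Acaa2 in IP. Spike-in scaling gave -0.35 for Cpt1a in IP, with no turn of its sign, and -0.20, -0.12 and -0.21 for Acaa2, Ppara and Pex11a in IP, where the median of all probes was -0.24 in place of -0.03. Quantile normalization gave -0.012 for Pex11a in Sup, and -0.034 and -0.17 for Acaa2 and Pex11a in IP. The median over spots gave -0.031 for Pex11a in IP. On the 8 arrays scanned together, or with scan as a block, which uses the same contrast, values were -0.024 for the ratio of Cpt1a, 0.021 for Acaa2 in Sup, and -0.00092 and -0.068 for Pex11a in Sup and IP. On the slide with both groups (1 control, assumed to vary like the others), or with slide as a block, they were -0.027 and 0.13 for the ratios of Cpt1a and Ppara, 0.14, 0.22 and -0.11 for Cpt1a, Acaa2 and Pex11a in Sup, and 0.055 and -0.18 for Cpt1a and Pex11a in IP. On the arrays left without control replicate 2 and testosterone replicates 4 and 5, added after seeing the data, they were -0.094, 0.073 and 0.035 for the ratios of Cpt1a, Ppara and Pex11a, 0.095, 0.0032 and -0.049 for Cpt1a, Acaa2 and Pex11a in Sup, and -0.050 for Pex11a in IP. Leaving out 1 array at a time gave -0.058 to 0.047 for the ratio of Cpt1a, -0.14 to 0.026 for that of Ppara, -0.055 to 0.076 for Acaa2 in IP and -0.044 to 0.033 for Pex11a in IP. The causes were not tested.

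Same-numbered samples did not deviate together in the ratio (correlations from -0.03 to 0.04 over 5 numbers). In the summed level the correlations ran from -0.05 to 0.21, over 0.1 for 2 of the 5 numbers. In both measures 0 of 5 control arrays correlated best with their own number, so the numbers were not taken to pair the samples. With the replicate number as a block, the difference in ratio of Acaa2 was 0.22 with an adjusted p by limma of 0.759, and 0 genes passed.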
